A study of Mus musculus with 6 samples.

Results

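Expression of the core genes of transforming growth factor β (TGF-β) signalling was examined in knee cartilage of miR-455 null and WT mice. The 10 genes were the ligands Tgfb1, Tgfb2 and Tgfb3, the latency proteins Ltbp1 and Ltbp3, the receptors Tgfbr1, Tgfbr2 and Tgfbr3, and the receptor-activated SMADs Smad2 and Smad3. The list was set by gene name and role in the pathway, with earlier results of these data known. All 10 were found among the 36711 gene identifiers measured. Cartilage was dissected from tibia and femur of C57/Bl6 mice at 3 months of age, with 3 WT libraries and 3 libraries from mice lacking miR-455, a microRNA that lies in an intron of Col27a1. In the null strain a CRISPR-Cas9 deletion truncates each of the mature forms, miR-455-3p and miR-455-5p, and is not restricted to chondrocytes, and no engineered allele was given for the WT mice. Knees were pooled in pairs for each library. Neither the labels nor the methods said whether a pair came from the same animal, or whether WT and null mice were littermates, so the spread behind each p-value is that between these libraries and may be technical in part.

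TGF-β ligands are secreted in a latent form, in which the active dimer is held by its own propeptide, and this complex is tethered to the matrix by latent TGF-β binding proteins. Once released, the ligand binds the type II receptor, which activates the type I receptor, and the latter phosphorylates SMAD2 and SMAD3 so that they enter the nucleus with SMAD4. In articular cartilage the pathway is known for restraining chondrocyte hypertrophy and for maintaining the lubricating superficial zone, while in bone marrow the ligands restrain the cycling of blood progenitors.

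The values are abundances per gene on the scale deposited by the authors, which behave as if corrected for transcript length, so that levels of different genes can be set side by side only approximately. Abundances summed to between 917819 and 1135956 per library, and between 83.3% and 92.6% of reads aligned. Depth is unknown, because the files hold no reads per gene. The libraries are labelled as chondrocytes. Of 12 chondrocyte markers 9 had a mean abundance of at least 1 and none was at 0 throughout, but their sum ran from 87.3 to 171 per library, against 112691 to 306167 for 10 erythroid markers and 74374 to 195867 for 10 neutrophil markers. In such mixed tissue, fewer cells of a type and less RNA per cell cannot be told apart. The library null 3 stood furthest from the rest, with a median absolute log2 difference of 0.246 to 0.357 from the other libraries, where the other pairs lay between 0.158 and 0.239.

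The sequences of the deleted microRNA and its seed matches are shown first, because loss of a microRNA removes its repression of transcripts that hold matches to its seed. Both mature forms lie on the plus strand of chromosome 4 (RefSeq, build GRCm38.p6), miR-455-5p at 63256867 to 63256888 and miR-455-3p at 63256904 to 63256924. They are written 5′ to 3′ with the seed, bases 2 to 8, in capitals.
miR-455-3p: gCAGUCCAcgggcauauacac
miR-455-5p: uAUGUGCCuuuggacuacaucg

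A 7-base match to the seed (TGGACTG for miR-455-3p, GGCACAT for miR-455-5p, on the transcript strand only) was searched in the longest annotated 3′UTR of each gene in GENCODE M21, build GRCm38. For miR-455-3p, 4 of the 10 genes held 1 match each, namely Ltbp3, Tgfbr3, Smad2 and Smad3. Of 11860 genes with a 3′UTR and a mean abundance of at least 1, 13.4% held such a match, but the 3′UTRs of the 10 genes were longer, with a median of 2862.5 bases against 1126.5 bases over those genes. For miR-455-5p none of the 10 genes held a 7-base match, against 8.86% of all genes. The match in Ltbp3 was the only one of the 4 that extended to 8 bases, through an A facing the first base of the microRNA, which 3.87% of genes held. A match describes letters in the annotation and does not show a working site.

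The matches of Ltbp3, Tgfbr3 and Smad3 are printed on the transcript strand, with the 7 matching bases in capitals, to show that the same letters sit in different flanking sequence. The window in Ltbp3 lies at chr19:5758394-5758422 on the plus strand, and its 7-base match starts at base 313 of a 3′UTR of 440 bases. That in Tgfbr3 lies at chr5:107107205-107107233 on the minus strand, and that in Smad3 at chr9:63648763-63648791 on the minus strand.
Ltbp3: gcttggcgggtTGGACTGagctgggaccc
Tgfbr3: tgaaaccatgcTGGACTGccccaggctaa
Smad3: gagatggtctgTGGACTGctgcttcagac

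The first question was how abundant each gene was and whether the genotypes differed. None of the 10 genes passed limma at an adjusted p of 0.05, and none had an unadjusted p under 0.05. Over the 12813 genes with a mean abundance of at least 1, 0.0312% passed adjustment, while 3.25% had an unadjusted p under 0.05 with a higher value in null and 2.33% with a lower value. Differences are given as log2(abundance + 0.5), null minus WT, with the standard error, and this scale understates the change of genes of low abundance. The log2 difference was above 0 for 9 of the 10 genes, Ltbp1 being the exception, against 54.1% of all genes tested. For the 9 genes that passed the abundance minimum, the median log2 difference was 0.22, against 0.02 over all genes tested. For each gene an exact permutation test, two-sided and over the 20 arrangements of the libraries, was also run, which cannot give a p below 0.1.

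**Figure D1:**
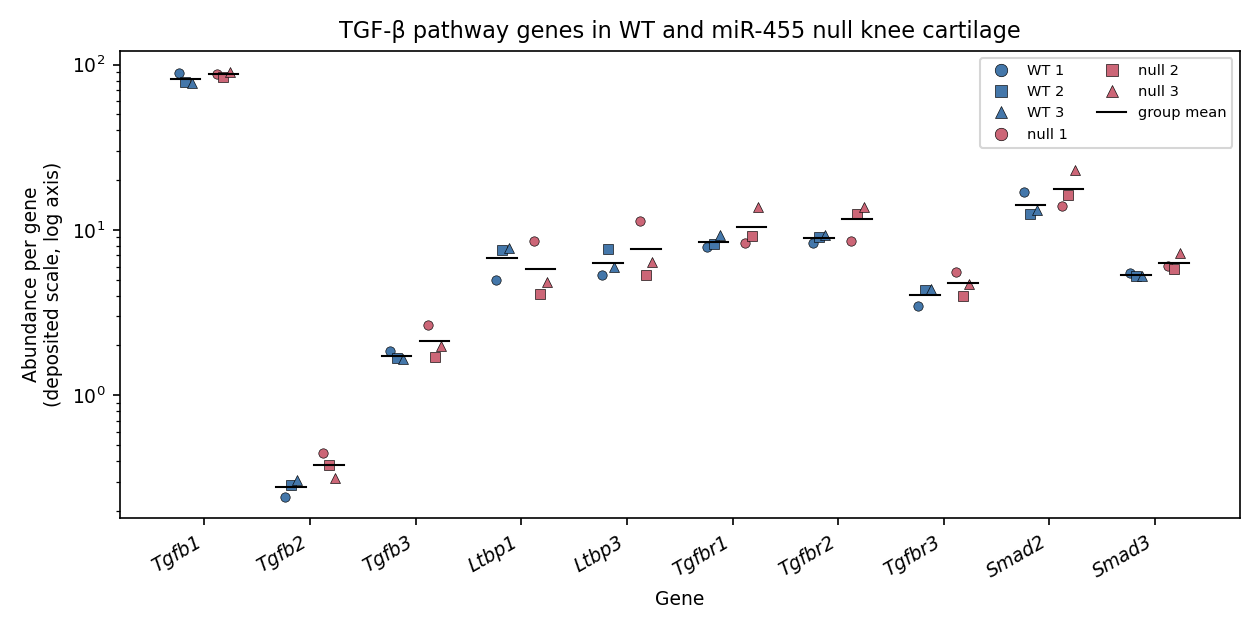
Abundance per gene (log axis, deposited scale) of the 10 genes in each of the 3 WT and 3 null libraries, with the bar at the group mean. Tgfb1 lies far above the others in every library, and Tgfb2 is the lowest.

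Among the ligands, Tgfb1 (chr7:25687002-25705077, GRCm38), the isoform of blood and immune cells as well as matrix, was by far the most abundant. It was at 89.4, 78.8 and 77.2 in WT 1 to 3 and at 87.6, 83.7 and 90.2 in null 1 to 3. The groups overlapped, since WT 1 lay above null 1 and null 2, and the ratio of null to WT means was 1.07 (81.8 ± 6.63 and 87.2 ± 3.25, SD, n = 3, exact permutation p = 0.3). The mean of Tgfb1 was above that of 92.2% of genes tested. Its log2 difference was 0.09 ± 0.11 (95% interval −0.16 to 0.35, limma adjusted p = 0.837), the smallest of the 10 in size. It was 0.16 without WT 1 and 0.054 without WT 3.

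Tgfb3 (chr12:86056745-86079041), an isoform of mesenchymal tissues, measured 1.85, 1.68 and 1.66 in WT libraries, compared with 2.68, 1.71 and 1.98 in null libraries. The high value was that of null 1, and null 2 lay within the WT range. The means were 1.73 ± 0.104 and 2.12 ± 0.497 (SD, n = 3, exact permutation p = 0.2), with a log2 difference of 0.22 ± 0.20 (95% interval −0.25 to 0.69, limma adjusted p = 0.810). Without null 1 it was 0.072, and without null 2 it was 0.33.

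Tgfb2 (chr1:186622792-186705989), an isoform required for skeletal and cardiac development, measured 0.244, 0.287 and 0.308 in WT libraries, compared with 0.449, 0.379 and 0.314 in null libraries. All 3 null values lay above all 3 WT values, null 3 only narrowly, and the ratio of means was 1.36 (exact permutation p = 0.1, the smallest possible). Its mean of 0.330 was below the abundance minimum, so it was tested without that minimum over 23176 genes, of which 5.03% had groups apart with null higher and 0.00863% passed adjustment. There the log2 difference of Tgfb2 was 0.17 ± 0.11 (95% interval −0.09 to 0.43, limma adjusted p = 0.794), and the read support at this level is unknown. Tgfb1 made up 97.6% ± 0.104 of the summed ligand abundance in WT against 97.2% ± 0.570 in null (SD, n = 3). Null 1 had the lowest share of Tgfb1, 96.6%, and the highest share of Tgfb3, 2.95%, against 1.99% to 2.14% of Tgfb3 in the other libraries.

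The latency proteins varied most between libraries. Ltbp1 (chr17:75005568-75392512), which binds latent ligand and anchors it to fibrillin and fibronectin, measured 4.97, 7.597 and 7.77 in WT libraries, compared with 8.52, 4.09 and 4.85 in null libraries. Null 2 and null 3 lay below every WT library, whereas null 1 was the highest of all. The means were 6.78 ± 1.57 and 5.82 ± 2.37 (SD, n = 3, exact permutation p = 0.7), and the log2 difference was −0.24 ± 0.29 (95% interval −0.93 to 0.45, limma adjusted p = 0.842). It was −0.53 without null 1 and −0.44 without WT 1, but −0.042 without null 2 and between −0.15 and −0.14 without WT 2, WT 3 or null 3.

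Ltbp3 (chr19:5740904-5758532), which is needed for secretion of latent TGF-β and for normal bone and tooth development in mice, measured 5.34, 7.63 and 5.93 in WT libraries, compared with 11.3, 5.36 and 6.38 in null libraries. Only null 1 lay outside the WT range. The log2 difference was 0.21 ± 0.28 (95% interval −0.45 to 0.88, limma adjusted p = 0.851, exact permutation p = 0.6 on the means of 6.30 ± 1.19 and 7.69 ± 3.20), and without null 1 it was −0.085. It was 0.11 without WT 1, 0.35 without WT 2 and 0.42 without null 2. Ltbp3 made up 51.8%, 50.1% and 43.3% of the sum of Ltbp1 and Ltbp3 in WT and 57.1%, 56.8% and 56.8% in null libraries. This share was 48.4% ± 4.51 in WT and 56.9% ± 0.176 in null (SD, n = 3), with no overlap. The difference was 8.48 percentage points, and 5.92 without WT 3. This share was formed after the genes had been chosen and was not tested. The shares formed for the ligands, receptors and SMADs did not have groups apart.

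The receptors were of intermediate abundance. Tgfbr1 (chr4:47353222-47414931), the type I receptor kinase ALK5, measured 7.86, 8.26 and 9.30 in WT libraries, compared with 8.27, 9.22 and 13.7 in null libraries. Null 1 and null 2 lay within the WT range and only null 3 above it. The log2 difference was 0.25 ± 0.20 (95% interval −0.22 to 0.72, limma adjusted p = 0.810, exact permutation p = 0.4). Without null 3 it was 0.045, and without null 1 it was 0.39.

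Tgfbr2 (chr9:116084293-116175360), the ligand-binding type II receptor kinase, measured 8.32, 9.12 and 9.32 in WT libraries, compared with 8.62, 12.4 and 13.7 in null libraries. Null 2 and null 3 lay above every WT library and null 1 within the WT range. Its log2 difference was the largest of the 10, 0.33 ± 0.18 (95% interval −0.10 to 0.77, limma adjusted p = 0.810, unadjusted p = 0.110), and the means were 8.92 ± 0.529 and 11.6 ± 2.65 (SD, n = 3, exact permutation p = 0.3). Without null 1 the log2 difference of Tgfbr2 was 0.52 ± 0.12, with an unadjusted p of 0.00500 and a limma adjusted p of 0.177, so that 1 of the 10 genes had an unadjusted p under 0.05 in place of 0. In that fit 2395 of all 12772 genes did, a share above that of the 10 genes. Without null 3 it was 0.20 ± 0.18 (limma adjusted p = 0.997).

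Tgfbr3 (chr5:107106570-107289629), the co-receptor betaglycan, which presents ligand and in particular the TGF-β2 isoform, measured 3.45, 4.32 and 4.39 in WT libraries, compared with 5.54, 3.99 and 4.69 in null libraries. Null 1 and null 3 lay above the WT range and null 2 within it. The log2 difference was 0.20 ± 0.17 (95% interval −0.21 to 0.60, limma adjusted p = 0.810, exact permutation p = 0.4). It was 0.099 without WT 1, 0.091 without null 1 and 0.31 without null 2. Of the summed abundance of the receptors, Tgfbr3 took 17.6% to 19.9% in WT but 24.7% in null 1 and 15.6% and 14.6% in null 2 and null 3. The group means, 18.9% ± 1.19 and 18.3% ± 5.57 (SD, n = 3), were alike although no null library lay within the WT range.

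Of the SMADs, Smad2, a transcriptional effector phosphorylated by the type I receptor, measured 16.9, 12.4 and 13.3 in WT libraries, compared with 13.95, 16.3 and 23.1 in null libraries. Only null 3 lay above the WT range, and the log2 difference was 0.30 ± 0.21 (95% interval −0.21 to 0.80, limma adjusted p = 0.810, exact permutation p = 0.3). Without null 3 it was 0.094 (limma adjusted p = 0.997), and without null 1 it was 0.45.

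Smad3 (chr9:63646767-63757994), the SMAD most closely tied to the maintenance of articular cartilage in mice, measured 5.46, 5.23 and 5.24 in WT libraries, compared with 6.04, 5.78 and 7.21 in null libraries. Every null library lay above every WT library, as for Tgfb2, and among the genes tested with the abundance minimum 6.27% had groups apart in this direction and 5.07% in the other. The WT values of Smad3 were the least variable of the 10 genes relative to their mean, at 5.31 ± 0.131, against 6.34 ± 0.763 in null (SD, n = 3, exact permutation p = 0.1, the smallest possible). The log2 difference was 0.23 ± 0.13 (95% interval −0.08 to 0.54, limma adjusted p = 0.810). Without null 3 it was 0.14. Smad3 made up 24.4% to 29.6% of the sum of Smad2 and Smad3 in WT and 23.8% to 30.2% in null libraries.

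**Figure D2:**
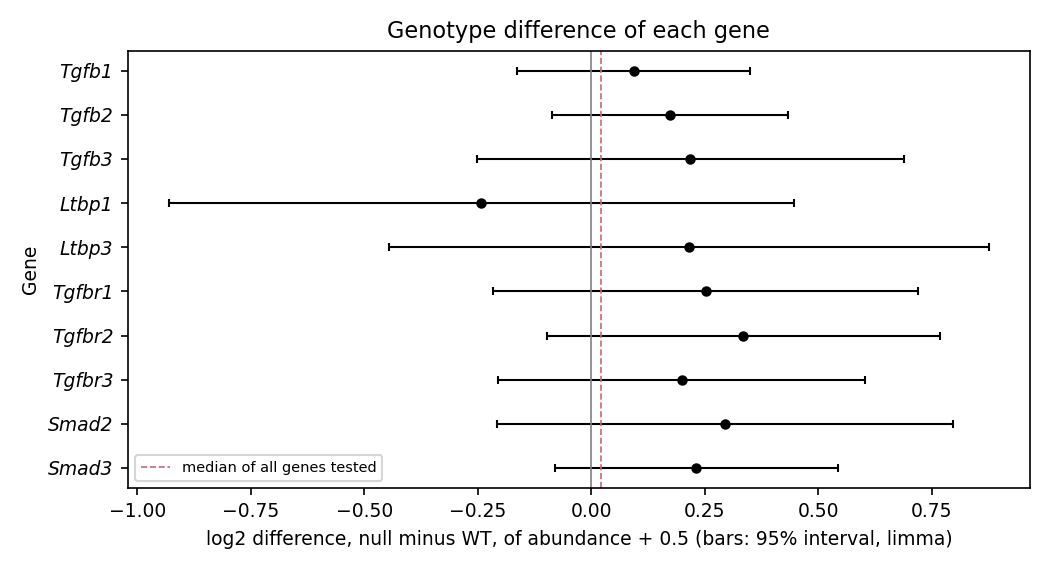
Difference between null and WT (log2 of abundance + 0.5, limma) for the 10 genes, with 95% intervals, and the median of all genes tested as a dashed line. All 10 intervals include 0, and 9 of the 10 estimates lie above it.

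The order of the levels was the same in all 6 libraries at its ends. Tgfb1 lay above Smad2, Tgfbr3 above Tgfb3 and Tgfb3 above Tgfb2 without overlap between any libraries. Between these, Smad2 exceeded Tgfbr2, Tgfbr2 exceeded Tgfbr1 and Smad3 exceeded Tgfbr3 in all 6 libraries, although their ranges overlapped. Tgfbr1 exceeded Ltbp3 and Ltbp3 exceeded Ltbp1 in 5 of 6 libraries, and Ltbp1 and Smad3 did not differ in a steady order (3 of 6).

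The second question was which libraries carried the differences. None of the 10 genes was highest in a WT library or in null 2. Null 1 was the highest library for Tgfb2, Tgfb3, Ltbp1, Ltbp3 and Tgfbr3, and null 3 for Tgfb1, Tgfbr1, Tgfbr2, Smad2 and Smad3. Over all genes tested, null 1 was the highest library for 2305 and null 3 for 3818 of 12813. Against the WT mean, null 1 was at 1.80 for Ltbp3, 1.61 for Tgfb2 and 1.55 for Tgfb3, while it was at 0.976 for Tgfbr1, 0.966 for Tgfbr2 and 0.982 for Smad2. Null 3 was at 1.62 for Tgfbr1, 1.54 for Tgfbr2 and 1.63 for Smad2, and at 0.715 for Ltbp1 and 1.01 for Ltbp3. The split was not complete, since null 3 was also above the WT mean for Tgfb2 (1.12), Tgfb3 (1.14) and Tgfbr3 (1.16), and null 1 for Smad3 (1.14). The latency genes, Tgfb2, Tgfb3 and the co-receptor were thus highest in a different null library from the signalling receptors and SMADs, while Tgfb1, with ratios of 1.07, 1.02 and 1.10 in null 1 to 3, differed little between null libraries.

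**Figure D3:**
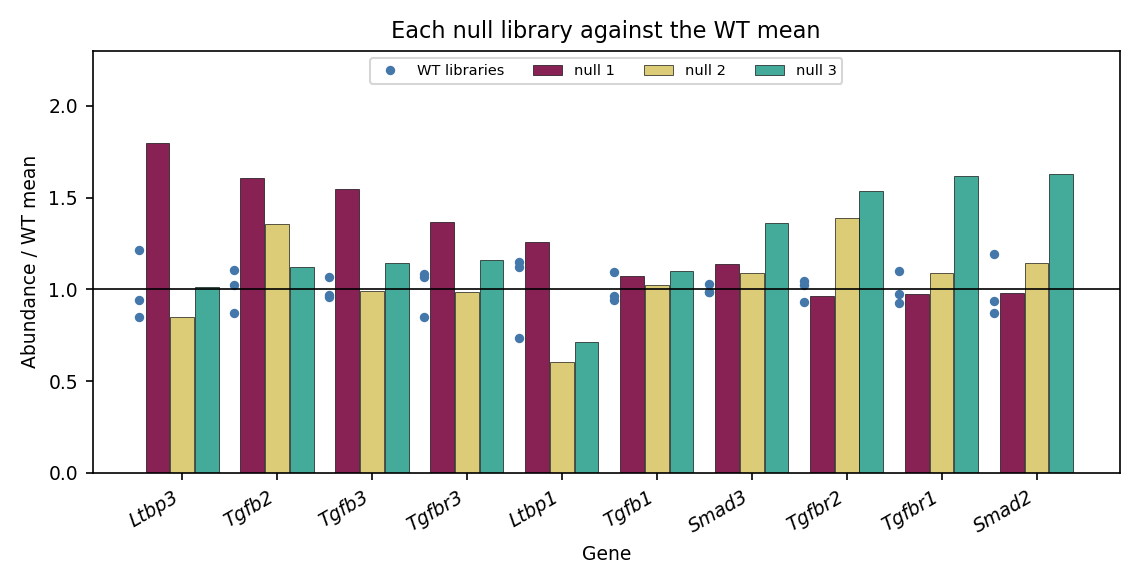
Abundance of each gene in null 1, null 2 and null 3 (bars) and in the WT libraries (points), divided by the WT mean. Null 1 is the highest for the 5 genes on the left and null 3 for the 5 on the right.

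Marker sums differed between the groups as well as between these libraries. Without overlap between WT and null, the mean sum was lower in null for erythroid markers (280123 in WT and 168179 in null) and for 9 B cell markers (425 and 265). It was higher in null, also without overlap, for 10 macrophage markers (341 and 419), for chondrocyte markers (89.0 and 133, highest in null 2), for fibroblast and synovium markers (384 and 620) and for muscle markers (51.1 and 105). The B cell sums were apart only narrowly, 341 in WT 1 and 340 in null 2. The most abundant of these were Cd79b and Cd79a for B cells, C1qa and C1qb for macrophages, Comp and Col2a1 for chondrocytes, and Mylpf and Tnni2 for muscle. Taken singly, 5 of 10 erythroid and 2 of 9 B cell markers had groups apart with null lower, against 5.07% of all genes. With null higher, 2 of 10 macrophage, 2 of 9 chondrocyte and 4 of 8 muscle markers past the abundance minimum did, against 6.27% of all genes. The fibroblast and synovium sum was led by Prg4, which is also among the matrix targets below. Prg4 was the 1 gene of that list with groups apart. Dcn, the next most abundant, measured 104, 114 and 105 in WT libraries, compared with 241, 92.4 and 83.7 in null libraries. Of the 8 genes of that list past the abundance minimum, 7 were higher in null and 1, Thy1, was lower. Whether the group differences in marker sums bear on the higher null means of 9 of the 10 genes was not tested.

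Among single libraries, null 1 had the highest sum of 10 fibroblast and synovium markers, 945 against 373 to 404 in WT and 435 and 480 in the other null libraries, with Prg4 and Dcn the most abundant. It also had the highest sum of 12 muscle markers, 171 against 41.6 to 56.8 in WT and 67.4 and 76.3 in null 2 and null 3, and of 9 osteoblast markers, 1421 against 858 to 1358 in the others. Null 3 had the highest sum of neutrophil markers, led by S100a9 and S100a8, 195867 against 74374 to 118824 in the others. It also had the highest sum of 7 osteoclast markers, 915 against 464 to 585, although Mmp9, which leads that list, is made by neutrophils too, and the lowest sum of erythroid markers. Platelets carry much TGF-β1, and the 10 megakaryocyte and platelet markers summed to 933 to 1104 in WT and to 1028, 628 and 760 in null libraries, where Tgfb1 was at 87.6, 83.7 and 90.2. None of the 10 platelet markers and none of the other markers listed here was at 0 in all libraries. The part of these cells in the values of the 10 genes was not tested.

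The third question was whether other genes of the pathway differed. In 7 lists of other pathway genes none passed adjustment over all genes (limma, smallest adjusted p = 0.810 in each), and the lists are described by their counts and medians without a test of the list. Some genes, such as Smad7, Skil and Pmepa1, stand in more than 1 list.

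Of 17 genes that hold or release latent TGF-β, 14 passed the abundance minimum. Of these 12 were higher and 2 lower in null, against 54.1% higher over all genes, and the median log2 difference was 0.28. An unadjusted p under 0.05 was found for 2 of them (3.25% of all genes had one with a higher value). They were Fbn1, the microfibril protein that binds latent complexes, averaging 1.85 ± 0.164 in WT against 2.66 ± 0.172 in null, and the crosslinking enzyme Tgm2 at 12.2 ± 1.05 and 16.1 ± 2.32 (SD, n = 3). The most abundant were the integrin subunit Itgb1 (61.2 ± 2.48 and 64.0 ± 3.97) and thrombospondin 1, Thbs1, an activator of latent ligand (38.8 ± 3.04 and 36.3 ± 5.02). Without null 1 the median log2 difference of this list was 0.086, with 10 of 14 genes higher. Both low p-values were lost without WT 1 and without WT 3, where no gene of the list had an unadjusted p under 0.05. They were also lost without null 2, where Emilin1 alone had such a p. Tgm2 lost it without null 1 and Fbn1 without null 3, so both kept it only without WT 2.

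Of 17 receptor modulators, all passed the minimum and 15 were higher in null (median log2 difference 0.19, and 0.13 with 13 genes higher without null 3). Of all genes 54.1% were higher, and 3.25% were higher with an unadjusted p under 0.05. An unadjusted p under 0.05 was found for Dab2, an endocytic adaptor of the receptors, at 5.70 ± 0.492 and 8.22 ± 0.772, and for Fkbp1a, which binds the type I receptor and holds it inactive, at 41.6 ± 2.76 and 54.6 ± 3.33. Both kept such a p on omission of any single library, and without null 1 there were 4 such genes that were higher and 1 that was lower (Usp15). In that fit 2395 of all 12772 genes had such a p. Usp15, a deubiquitinase, was at 96.4 ± 2.48 and 86.5 ± 17.6, and Lrg1, a glycoprotein also stored in neutrophil granules, at 61.2 ± 7.53 and 114 ± 50.3 (SD, n = 3). Null 3, which had the highest neutrophil sum, also had the highest Lrg1, 157. Lrg1 was at 125 in null 2 and 69.0 in WT 1, where the neutrophil sums were 118824 and 114323. The part of neutrophils in the Lrg1 values was not tested.

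Nuclear partners lay close to all genes, with 6 of 9 higher and a median log2 difference of 0.05, against 54.1% and 0.02 over all genes. The corepressor Ski averaged 8.788 ± 0.4002 in WT against 11.1 ± 2.03 in null, and the coactivator Ep300 13.05 ± 0.691 and 18.4 ± 6.01, without overlap in either. Over all genes 6.27% had groups apart in this direction. Ep300 was apart only narrowly, with 13.8 in WT 2, 13.9 in null 1 and 25.2 in null 3. The phosphatase Ppm1a was at 47.9 ± 1.63 and 49.4 ± 7.63 (SD, n = 3). Smad4, the shared partner of the SMADs, named after its values were seen, measured 13.9, 14.7 and 14.5 in WT libraries, compared with 12.0, 14.04 and 19.7 in null libraries, again highest in null 3. Without null 3 the median log2 difference of the nuclear partners was −0.05, with 4 of 9 genes higher. No nuclear partner had an unadjusted p under 0.05 with all libraries, and 1 did without null 1 (Ep300) or without null 2 (Ski). Over all genes, 2395 of 12772 had such a p without null 1 and 504 of 12808 without null 2.

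In the activin branch, which also acts through SMAD2 and SMAD3, 5 of 10 genes passed the minimum and 4 of them were higher (median 0.31). The share higher over all genes was 54.1% and their median 0.02. The activin subunit Inhba measured 7.41, 7.81 and 7.38 in WT libraries, compared with 7.399, 11.7 and 14.1 in null libraries, and the type I receptor Acvr1b was at 5.16 ± 0.3996 and 7.23 ± 3.39. Fstl3, an activin antagonist, was at 1.66 ± 0.373 and 2.22 ± 0.681 (SD, n = 3). Without null 3 the median log2 difference of this branch was 0.04. Without null 1 it was 0.54, with 2 genes at an unadjusted p under 0.05 (Inhba and Acvr1b) in place of 0. In that fit 2395 of all 12772 genes had such a p, against 714 of 12813 with all libraries. Of the 5 genes of the TAK1 kinase branch, Tab1 was lower in null without overlap (11.5 ± 0.279 and 9.16 ± 1.15, limma adjusted p = 0.810). Map3k7, which encodes TAK1, was higher in null without overlap (12.7 ± 0.502 and 14.1 ± 0.732). Over all genes, 5.07% had groups apart with null lower and 6.27% with null higher. Mapk14 was at 60.1 ± 6.84 and 71.0 ± 18.5, and Tab2 at 36.0 ± 3.22 and 36.4 ± 3.40 (SD, n = 3). The median log2 difference of the TAK1 branch was 0.14, and 0.016 without null 3. Tab1 had an unadjusted p under 0.05, which was lost without any 1 of the WT libraries and without null 3. Of all genes 2.33% had such a p with a lower value.

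Genes known to be induced by TGF-β in connective tissue cells were put in lists of signalling targets and matrix targets. These lists were chosen with earlier results of these data known, so their counts are a description and not an independent readout of the pathway. All 9 signalling targets that passed the minimum were higher in null, with a median log2 difference of 0.32. Over all genes 54.1% were above 0, the median was 0.02, and 3.25% had an unadjusted p under 0.05 with a higher value. Ccn2, a matricellular growth factor and the 1 gene of this list with an unadjusted p under 0.05, measured 20.6, 25.5 and 33.2 in WT libraries, compared with 70.2, 34.1 and 35.3 in null libraries (log2 difference 0.75 ± 0.31, limma adjusted p = 0.810), with the highest value in null 1. The feedback inhibitor Pmepa1 was at 2.82 ± 0.576 and 3.99 ± 0.823, the matrix protein Tgfbi at 77.6 ± 4.85 and 103 ± 40.0, and Junb at 59.8 ± 22.2 and 60.8 ± 22.6 (SD, n = 3). Without null 1, 7 of the 9 targets were higher. The number of targets with an unadjusted p under 0.05 ran from 0 to 3 on omission of single libraries, and Ccn2 was not among them without WT 1, without WT 2 (Pmepa1 alone) or without null 1 (Tgfbi alone). Over all genes that number ran from 416 without WT 1 to 2395 without null 1. Smad7, the classical inhibitor induced by the pathway, named after its values were seen, was at 2.98 ± 0.499 and 3.39 ± 0.467.

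Of 16 matrix targets 15 were higher in null (median log2 difference 0.38), 5 with an unadjusted p under 0.05, namely Vcan, Fn1, Bgn, Prg4 and Timp1, of which the last 3 were named after their values were seen. Fn1, the fibronectin to which Ltbp1 anchors, measured 111, 101 and 104 in WT libraries, compared with 208, 141 and 162 in null libraries. Vcan, a large proteoglycan, measured 2.98, 3.66 and 3.22 in WT libraries, compared with 4.96, 8.003 and 7.65 in null libraries. The paper had already listed Vcan among the genes increased in null cartilage. The most abundant targets, Sparc and Col1a2, were at 415 ± 58.8 and 549 ± 116, and at 283 ± 49.9 and 324 ± 124 (SD, n = 3). Over all genes 54.1% were above 0 and 3.25% had such a p with a higher value. The number with such a p was 3 without WT 1 or WT 2, where Prg4 and Timp1 were lost, and 7 without null 3. Over all genes and in either direction, it was 416 without WT 1, 498 without WT 2 and 657 without null 3. Without null 1, which had the highest fibroblast, muscle and osteoblast marker sums, 11 of the 16 were higher and the median fell to 0.17. Without null 3 the count was 14 and the median 0.50. Fn1, Bgn and Prg4 are also markers of stroma, whose part in this was not tested.

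**Figure D4:**
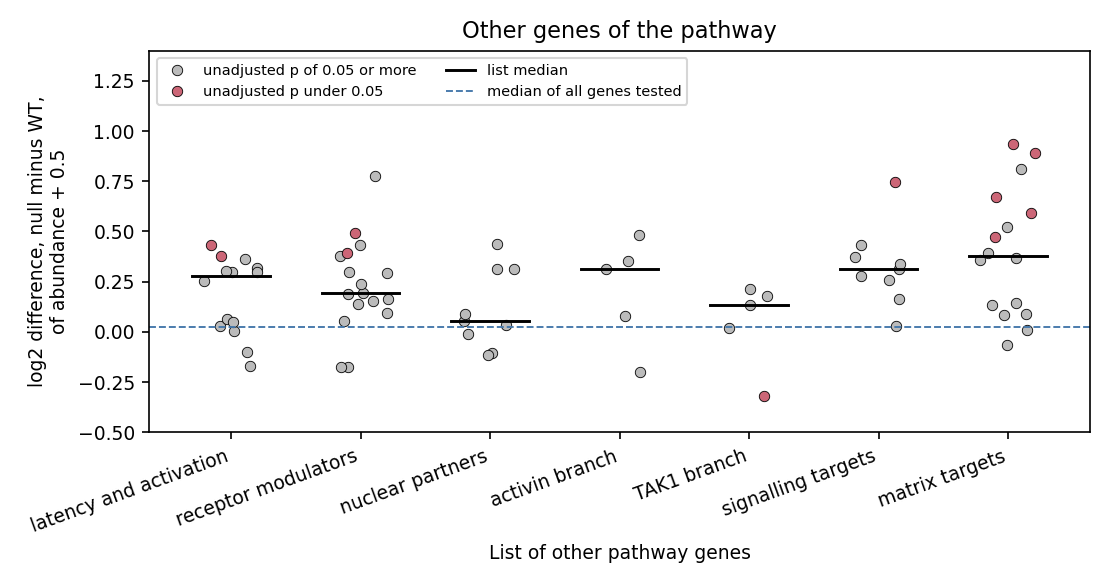
Log2 difference between null and WT for the genes of 7 lists of other pathway genes that passed the abundance minimum, with the median of each list (bar) and of all genes tested (dashed line). The medians run from 0.05 for nuclear partners to 0.38 for matrix targets, and filled red points mark an unadjusted p under 0.05.

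The genes with a miR-455-3p match shown above had log2 differences of 0.21 (Ltbp3), 0.20 (Tgfbr3), 0.30 (Smad2) and 0.23 (Smad3), and the 6 without one lay between −0.24 (Ltbp1) and 0.33 (Tgfbr2). The intervals of all 4 included 0, and their highest values fell in null 1 for Ltbp3 and Tgfbr3 and in null 3 for Smad2 and Smad3. The difference between genes with and without a match was not tested.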

How the data were processed

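RNA sequencing of total RNA gave 6 libraries, 3 WT and 3 miR-455 null, grouped and numbered from their titles. Per the labels, the authors used FastQC, Trim Galore, kallisto and sleuth with mm10. Their versions are not given in the sources used here. Those authors deposited 1 signal value per gene and library, named normalised counts, which was never negative and mostly not whole. The deposited percent of reads aligned was taken as given. Reads per gene were not used here, so no counting interval was calculated. Symbols came from GENCODE M21, which matched 35866 of 36711 identifiers. Abundance fell weakly with transcript length (Spearman −0.231 across 12618 genes, which are not independent replicates), whereas counts would grow with it.

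Genes with a mean of at least 1 over the 6 libraries were tested with limma 3.58.1 (R 4.3.3) on log2(abundance + 0.5), with a trended prior, genotype as its term and Benjamini-Hochberg adjustment over 12813 genes. Genes below that minimum were taken from a fit without it. The procedure was tested on simulated data. The 10 genes and the lists were chosen with earlier results of these data known. Of each other list, genes past adjustment, the 2 most abundant and the 2 with the lowest p were named, with any others marked. Libraries were not taken as pairs by number, for reasons given with the alternatives. No 2 libraries held identical values. Alternatives were other minimums, pseudocounts, scalings, variance models, a block for replicate number, and the omission of single libraries. Plots were made in matplotlib 3.10.9.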

Additional observations from a re-analysis of the deposited data

How the results depend on the processing

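Of 164 values of the 10 genes under the alternatives, 162 kept direction and stayed short of adjusted p 0.05, and 2 changed sign. Both were Ltbp3, at −0.085 with gene-by-gene library weights and at −0.085 without null 1, where its values with 1 library omitted reached 0.42 (without null 2). No alternative brought any of the 10 genes past adjusted p 0.05, and the lowest adjusted p was 0.175, for Tgfbr2 with gene-by-gene weights, where Tgfbr2 was also the 1 gene with an unadjusted p under 0.05. The number with an unadjusted p under 0.05 and a higher value ran from 0 to 1 on omission of single libraries. The number of genes whose groups lay apart with null higher was 2, against 1 with either minimum of 5 (where 7 of the 10 genes could be tested), 5 when each library was scaled to a common total, and 2 to 5 on omission of single libraries, 5 without WT 1 (Tgfb1, Tgfb2, Tgfb3, Smad2 and Smad3) and 4 without null 2. With null lower, it was between 0 and 1, the 1 being Ltbp1 without null 1. The share of all genes with groups apart was not calculated under scaling or omission. Groups of 2 and 3 libraries also lie apart more readily than groups of 3 and 3, so these counts have no baseline. Scaling to a common total raised the median log2 difference of all genes from 0.02 to 0.13 and the share above 0 from 54.1% to 72.0%, and Ltbp1 remained below 0 there. The replicate block gave Tgfbr2 a log2 difference of 0.33 (adjusted p = 0.866) and changed no call among the 10 genes, while over all genes the number past adjustment was 1 in place of 4. The deviations of same-numbered libraries correlated at −0.13, 0.05 and −0.03, so the numbers were not taken to pair them. Over all genes, the number past adjustment was 4, with 1 to 5 under alternatives that kept every library and 1 to 14 on omission of single libraries (14 without WT 3, 13 without null 1), and the number at an unadjusted p under 0.05 was 714, with 2395 without null 1, 416 without WT 1, 2469 with gene-by-gene weights, 1116 without a minimum and 453 and 451 with the minimums of 5. What caused these shifts was not tested. A 6-base match to miR-455-3p was held by 7 of the 10 genes and an 8-base match by 1, while 5 genes held a 6-base match to miR-455-5p. Leaving out libraries for the lists of other pathway genes was added after the data had been examined. Depth is unknown, so the read support of Tgfb2 cannot be judged.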
